A study of Mus musculus with 9 samples.

Results

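The claudins of the kidney tubule were followed through single-cell RNA-seq (scRNA-seq) data of 9 mouse kidneys. The 10 genes described are Cldn1, Cldn2, Cldn3, Cldn4, Cldn7, Cldn8, Cldn10, Cldn14, Cldn16 and Cldn19. They were taken by name from 32427 genes listed in the matrices, by a rule that used no measured value but with earlier results of these data known, and all 10 were found. The files list 11 further claudins that are not described. The mice were male C57BL/6, 6 weeks old at the start, with 3 kidneys per group. Control mice received saline by intraperitoneal injection. AKI-CKD mice received cisplatin at 8 mg/kg in 4 weekly injections, a model in which acute kidney injury (AKI) leads to chronic disease (CKD), and AKI-CKD + EGT mice received the same injections together with ergothioneine (EGT, a sulphur-containing antioxidant) at 0.5 mg/mL in drinking water, from before the first cisplatin dose to the end of the study. All kidneys were taken after 8 weeks, and each mouse is 1 library. The labels name separate samples per group, and the methods name separate animals.

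Claudins are membrane proteins of the tight junction, the seal between neighbouring epithelial cells. Strands of claudins either block the path between cells or form pores in it, and the set of claudins in a tubule segment fixes which ions pass there. The proximal tubule (PT) is leaky and uses the cation and water pore of Cldn2 and an anion-selective form of Cldn10. The thick ascending limb (TAL) of the loop of Henle takes up calcium and magnesium between its cells. It does so through Cldn16 and Cldn19, which interact, while another form of Cldn10 passes sodium and Cldn14 closes the calcium path when the calcium-sensing receptor is active. The distal tubule and collecting duct are tight, and hold Cldn3, Cldn4, Cldn7 and Cldn8 as barrier or chloride-selective claudins. Cldn1 is known from the parietal cells of Bowman's capsule. In the mouse TAL, protein studies have found Cldn10 and Cldn16 at different junctions of the same segment.

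Before the values, 4 start windows are shown. Cldn10, whose forms are known to differ in their first exon, has 2 starts in RefSeq, and both are counted in 1 row of these poly(dT)-primed data, so that a Cldn10 level is the sum of them. Cldn3 and Cldn4 are neighbours on chromosome 5, are read from opposite strands, and are shown as the neighbouring pair among the distal claudins. Each window runs from 250 bases before to 50 bases after the start, from RefSeq on build GRCm38.p6, and is given 5′ to 3′ on the gene's strand. Capitals mark the GC box, GGGCGG or its reverse complement CCGCCC, searched on both strands. The matrices were made on GRCm39, and no coordinate from them is used. The first Cldn10 start lies at chr14:118787621-118787920 (plus strand), the second at chr14:118854700-118854999 (plus strand), Cldn3 at chr5:134985964-134986263 (plus strand) and Cldn4 at chr5:134946885-134947184 (minus strand).
Cldn10, first start: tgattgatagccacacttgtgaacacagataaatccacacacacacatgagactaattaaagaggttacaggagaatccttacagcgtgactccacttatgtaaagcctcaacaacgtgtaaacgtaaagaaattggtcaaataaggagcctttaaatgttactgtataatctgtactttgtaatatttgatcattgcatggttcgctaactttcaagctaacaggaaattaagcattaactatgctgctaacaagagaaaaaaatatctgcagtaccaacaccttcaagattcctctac
Cldn10, second start: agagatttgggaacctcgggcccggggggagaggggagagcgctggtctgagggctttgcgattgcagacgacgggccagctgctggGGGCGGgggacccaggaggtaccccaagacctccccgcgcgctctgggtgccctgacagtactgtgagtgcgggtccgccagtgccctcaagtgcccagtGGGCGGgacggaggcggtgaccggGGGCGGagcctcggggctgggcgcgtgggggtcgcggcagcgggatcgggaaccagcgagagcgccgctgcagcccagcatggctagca
Cldn3: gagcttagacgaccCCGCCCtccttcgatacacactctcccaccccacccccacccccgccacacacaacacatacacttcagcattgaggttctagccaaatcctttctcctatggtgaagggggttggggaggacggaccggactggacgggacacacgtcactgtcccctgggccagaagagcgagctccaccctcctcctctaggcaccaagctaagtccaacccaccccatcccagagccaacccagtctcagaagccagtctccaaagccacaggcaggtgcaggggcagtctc
Cldn4: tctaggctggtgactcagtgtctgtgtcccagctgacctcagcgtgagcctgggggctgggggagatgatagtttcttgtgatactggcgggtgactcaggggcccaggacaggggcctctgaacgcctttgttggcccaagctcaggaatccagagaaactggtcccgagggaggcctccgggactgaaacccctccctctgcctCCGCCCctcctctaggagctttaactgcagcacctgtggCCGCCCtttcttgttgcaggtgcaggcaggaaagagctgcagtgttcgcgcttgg
The Cldn10 starts differed in these letters. The first window held 0 GC boxes and 4 CpG dinucleotides, and 31.4% of all windows had fewer. The second held 3 GC boxes and 27 CpG dinucleotides, and 84.5% of all windows had fewer. Cldn3 had 1 GC box and Cldn4 had 2, and each had 9 CpG dinucleotides, against a median of 7. A GC box was found in 35.7% of the 32851 windows of this length. A match of letters is a description and not a binding site. RefSeq windows were found for 9 of the 10 claudins, and Cldn8 is the one without an entry.

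The matrices held 216680 cell names and 70106161 to 101525691 UMIs per mouse. Cells with at least 1000 UMIs, at least 500 detected genes and at most 15% mitochondrial UMIs were kept, 196925 in all. Cell names are serial numbers, and 62337 of 98290 occur in more than 1 library, so they identify no cell across libraries. Clusters were made without claudins and other tight junction genes and named from markers, which gave 17 classes with at least 10 cells in every mouse. Each class name below stands for cells that resemble that type by its markers, and the marker genes of the proximal tubule (11 genes), TAL, distal convoluted tubule (DCT), connecting tubule (CNT), principal cells and intercalated cells led their own clusters. Clusters with markers of another class and proximal marker RNA at 75% or more of the proximal level were set aside as mixed. They took 7.02% ± 2.49 (SD, n = 3) of Control, 3.30% ± 0.687 of AKI-CKD and 12.7% ± 9.58 of AKI-CKD + EGT cells, and 23.5% of cells in AKI-CKD + EGT mouse 3. Levels are given as CPM, the UMIs of a gene summed per mouse and class and scaled by all UMIs of that class. In a class, less RNA per cell and fewer cells that carry it cannot be told apart from the sums alone.

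Proximal RNA was found in every class, which sets how Cldn2 and Cldn10 can be read. The 11 proximal markers together reached 19102 to 25129 CPM in PT S1-like cells over the 9 mice, and still 8949 to 12967 CPM in T cells, which do not make them. Of all UMIs of the claudins in kept cells, 182502 were Cldn2 and 186879 were Cldn10, against 13884 for Cldn7, 4886 for Cldn8, 4142 for Cldn19, 3991 for Cldn1, 2420 for Cldn4, 2181 for Cldn16, 1752 for Cldn3 and 156 for Cldn14. The map of Control levels shows 3 blocks: a proximal one, a TAL one, and one that runs through the thin limb, collecting duct and distal tubule.

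**Figure D1:**
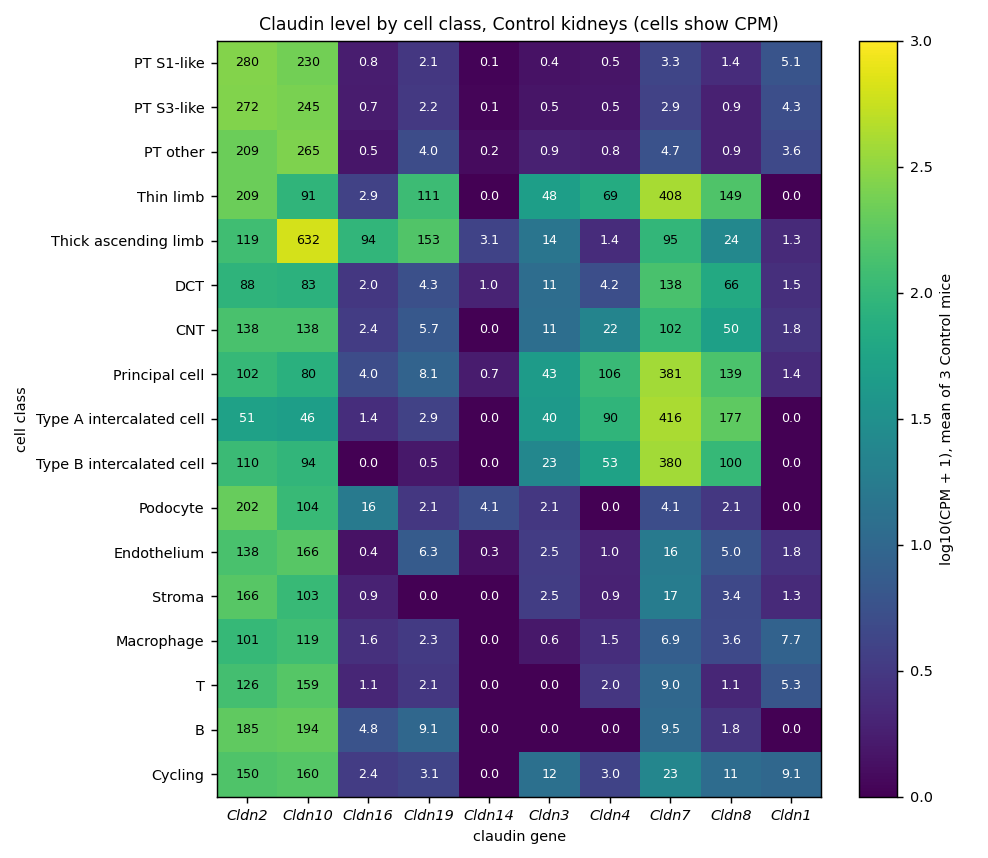
Level of the 10 claudins (columns) in 17 cell classes (rows), as CPM averaged over 3 Control mice, with colour on a log10(CPM + 1) scale; compare values down a column, not between genes. Cldn16 and Cldn19 peak in the TAL at 93.7 and 153 CPM, Cldn3, Cldn4, Cldn7 and Cldn8 in the collecting duct and thin limb, and Cldn2 and Cldn10 are above 40 CPM in every class.

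Cldn2, the cation and water pore of the proximal tubule, had its highest Control level in PT S1-like cells at 280.2 CPM ± 35.3 (SD, n = 3). PT S3-like cells stood at 272 CPM ± 40.5, PT other cells at 209 ± 21.4 and thin limb cells at 209 ± 37.0. The first pair overlapped over Control mice, and so did the last pair. PT other is the proximal class that leaned clearly to neither S1 nor S3 markers, and its cells were the shallowest of all classes, at a median of 1637 UMIs. In single PT S1-like cells, 40960 of 80446 had a Cldn2 UMI (50.9%), with a median depth of 2908 UMIs. After thinning each cell to 1000 UMIs the share was 21.9%, against 7.44% of T cells, whose median depth was 2316 UMIs. By mouse, Cldn2 in PT S1-like cells was 286, 242 and 312 CPM in Control mice, 234, 247 and 331 CPM in AKI-CKD and 281, 282 and 265 CPM in AKI-CKD + EGT. The groups overlapped in full, with a log2 fold change of 0.08 ± 0.17 (SE) for AKI-CKD against Control (edgeR's quasi-likelihood test, Benjamini-Hochberg adjusted p = 0.854) and of -0.18 ± 0.17 for EGT against AKI-CKD (adjusted p = 0.670).

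To set Cldn2 and Cldn10 against the proximal RNA that every class carries, their UMIs were counted per 1000 UMIs of the 11 proximal markers. If a class held proximal RNA alone, this ratio would be that of the proximal tubule. Cldn2 gave 12.3 in PT S1-like and 13.1 in PT S3-like cells, and 13 of the 14 classes outside the proximal tubule lay between 10.4 and 13.7. The thin limb was the exception at 21.3. There the ratio was 25.4, 28.4 and 19.2 in Control, 24.7, 30 and 39.7 in AKI-CKD and 20.1, 11.9 and 22.4 in AKI-CKD + EGT mice. It exceeded the highest PT S1-like value of any mouse, 14.7, in 8 of 9 mice. Single mice of other classes did so too, in at most 3 of 9 mice of a class, among them Control type B intercalated cells at 16.3, 9.21 and 20.1 from 23 to 39 UMIs. Thin limb cells numbered 17 to 144 per mouse and Cldn2 there 7 to 77 UMIs, so the single values are loose. Cldn2 counts pooled over mice thus exceeded the proximal ratio in the thin limb, and at this depth no such excess was detectable in the TAL, DCT, CNT or principal cells.

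Cldn10, the claudin with an anion-selective and a cation-selective form, behaved otherwise. Its highest level was in the TAL, at 632 CPM ± 234 in Control, with 397, 634 and 866 CPM in the 3 mice. PT other cells stood at 265 ± 52.1, PT S3-like at 245 ± 47.2 and PT S1-like at 229.6 ± 42.4, which overlapped with each other, and all lay below the lowest TAL value. Per 1000 proximal marker UMIs, Cldn10 gave 65.2 in the TAL, 11.8 in PT S1-like and 12.5 in PT S3-like cells, while the other 13 classes outside the proximal tubule lay between 10.8 and 13.6. In the TAL the ratio was 33.8, 64.4 and 95.3 in Control, 65.5, 129.6 and 97.7 in AKI-CKD and 90.5, 45.3 and 41.7 in AKI-CKD + EGT mice, above every PT S1-like value (8.61 to 14.7). The groups overlapped. Over all mice pooled, the TAL was the one class outside the proximal tubule above this range. Single mice of other classes also lay above 14.7, in at most 4 of 9 mice of a class, with up to 34.3 in thin limb cells of an AKI-CKD mouse (from 8 UMIs) and 38.9 in podocytes of another. TAL values did so in 9 of 9.

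**Figure D2:**
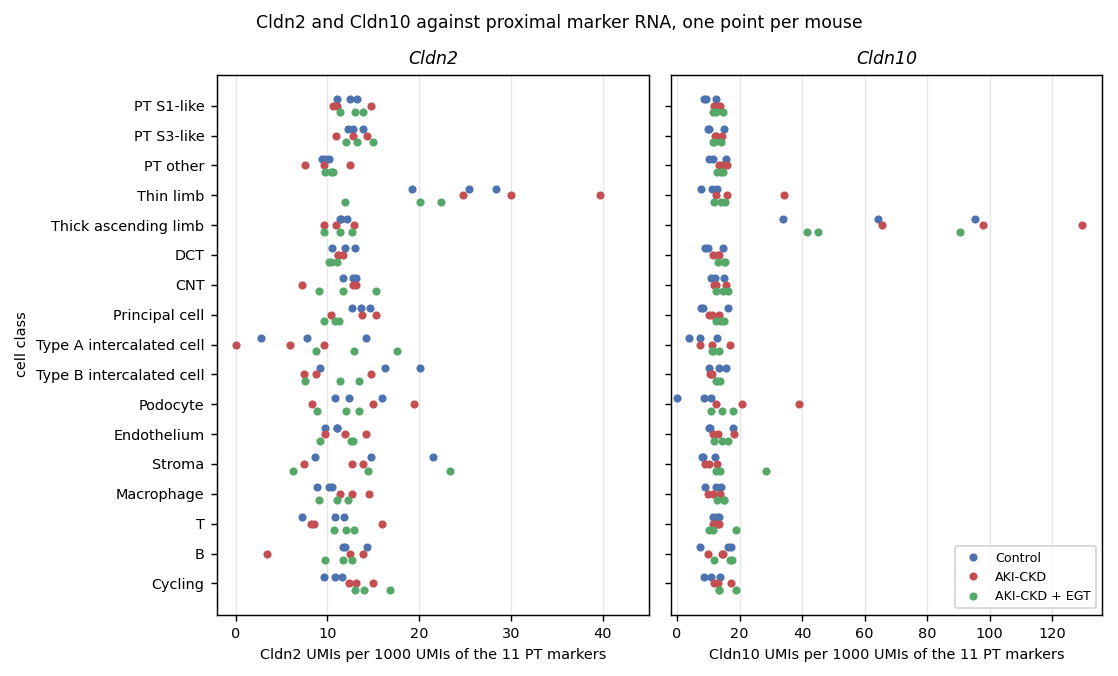
Cldn2 (left) and Cldn10 (right) as UMIs per 1000 UMIs of 11 proximal markers (x axis) in each cell class (y axis), 1 point per mouse and coloured by group. Most classes cluster near the proximal value of about 12, with the thin limb apart for Cldn2 and the TAL apart for Cldn10.

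The calcium and magnesium claudins had their highest levels in the TAL, and Cldn19 was also found in the thin limb. Cldn16 stood at 105, 97.3 and 78.9 CPM in Control mice, 104, 187 and 102 CPM in AKI-CKD and 146, 72.2 and 70.2 CPM in AKI-CKD + EGT TAL cells. The groups overlapped. The next class was the podocytes at 15.7 CPM ± 11.7 in Control, which rests on 4 UMIs. In single cells, 910 of 5200 TAL cells (17.5%) and 6 of 941 T cells (0.638%) had a Cldn16 UMI. The median depth was 1973 UMIs for TAL and 2316 for T cells, the deeper of them. Over the 17 classes, and among 10229 genes, the profile most like that of Cldn16 belonged to Slc12a1, the salt cotransporter of the TAL (Pearson r = 0.96, given as a description).

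Cldn19, the partner of Cldn16, was present in both limb classes. In the TAL it stood at 102, 154 and 204 CPM in Control mice, 171, 228 and 190 CPM in AKI-CKD and 228, 111 and 98.0 CPM in AKI-CKD + EGT mice. The thin limb gave 104, 136 and 94.1 CPM, 31.5, 184 and 89.1 CPM, and 105, 82.4 and 54.2 CPM in the same order. In both limbs the 3 groups overlapped, and in Control mice the limbs overlapped with each other. Of the thin limb UMIs, 200 were Cldn19 and 1326 were TAL markers, a ratio of 151 per 1000, against 11.4 in the TAL itself. In each of the 9 mice the thin limb ratio, 59.8 to 333 per 1000, lay above that of the TAL, 9.11 to 13.1. Its profile over classes was most like those of Irx2, Irx1 and Sim2, which are transcription factors.

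Cldn14, which closes the calcium path, was at the edge of detection, with 156 UMIs in all kept cells. In the TAL it gave 5.33, 1.18 and 2.66 CPM in Control mice, 4.57, 8.48 and 1.58 CPM in AKI-CKD and 10.7, 2.17 and 1.49 CPM in AKI-CKD + EGT mice, from 2 to 13 UMIs per mouse. Podocytes had a higher Control mean, 4.15 CPM, but from 2 UMIs in 1 mouse. Cldn14 passed the filter on low counts in 0 classes and could not be tested.

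The TAL class is not uniform, and claudin levels differed among its subclusters. TAL cells were clustered again without claudins into 12 subclusters, of which 5 (T1, T3, T5, T8 and T11) carried proximal marker RNA at 13896 CPM or more and the other 7 at 9251 CPM or less. Proximal genes such as Spp2, Slc5a2, Slc7a13 and Slc22a6 led T1, T3, T5 and T11 (672, 641, 449 and 72 cells). These were kept in the class and in the counts of single TAL cells. The subcluster with the least proximal RNA, T0, had 898 cells, was led by Egf and Umod, and held Cldn16 at a median of 261 CPM over mice (170.2 to 440). Another, T6, with 399 cells and Nccrp1, Cryab and Ptgds among its leading genes, had the highest Cldn10 median of any subcluster, 1783 CPM (722 to 3151), where T0 had 690 CPM (522 to 1286), but Cldn16 at 38.3 CPM (0 to 191). The ranges of T0 and T6 over mice overlapped for both genes. Subcluster T4 (536 cells) was led by Pgam2, Calb1, S100g and Pvalb, of which the last 3 are known from the DCT and CNT, and was kept in the class. Cldn19 did not separate them, at 305 CPM in T0 and 306 CPM in T6. Haemoglobin genes also led T6, and their part in its values was not tested. A further one, T10, had 84 cells, Nos1 at 543 CPM and 5 macula densa markers at least 2-fold up, and is called macula densa-like. Its pooled levels were 99.7 CPM for Cldn3, 299 for Cldn7, 405.6 for Cldn10, 89.4 for Cldn16 and 68.7 for Cldn19, but only 3 mice had 10 or more of its cells.

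**Figure D3:**
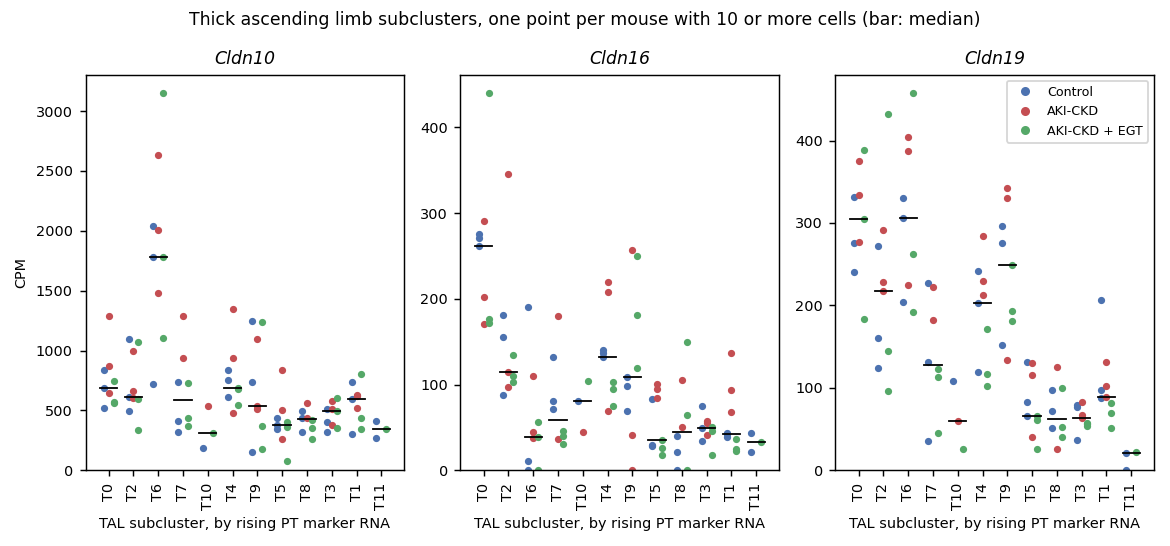
Levels (y axis, CPM) of Cldn10, Cldn16 and Cldn19 in 12 TAL subclusters (x axis, ordered by rising proximal marker RNA), 1 point per mouse with 10 or more cells and a bar at the median, coloured by group. T6 has the highest Cldn10 median, 1783 CPM, and a low Cldn16 median, 38.3 CPM, while T0 has 261 CPM of Cldn16.

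Within single TAL cells, Cldn10 and Cldn16 were found together less often than their shares would give. Each cell was thinned to 1000 UMIs, and the share of cells with both genes was divided by the product of the shares with each, so that 1 means independent detection. Cldn10 with Cldn16 gave 0.663 ± 0.0976 (SD, n = 9), with 0.509 as the lowest and 0.785 as the highest mouse, below 1 in 9 of 9 mice. Cldn16 with Cldn19 gave 1.24 ± 0.388, above 1 in 7 of 9 mice. Cldn10 with Cldn19 gave 1.22 ± 0.206, above 1 in 8 of 9, and Cldn7 with Cldn16 gave 1.34 ± 0.784, above 1 in 7 of 9. Since the subclusters also differ in Cldn10 and Cldn16, the pair was looked at within T0 alone, a setting chosen after the data were seen, where it gave 0.493 ± 0.293, again below 1 in 9 of 9 mice. The other pairs lay near 1 within T0, at 0.967 ± 0.578 for Cldn16 with Cldn19 (above 1 in 4 of 9 mice), 0.970 ± 0.22 for Cldn10 with Cldn19 (4 of 9) and 1.04 ± 0.678 for Cldn7 with Cldn16 (5 of 9), so their values above 1 in all TAL cells were not found within this subcluster. TAL cells with a Cldn16 UMI held Cldn10 at 0.481 to 0.792 times the level of those without, in every mouse. Cells with a Cldn16 UMI were deeper, with a median of 2077 to 2971 against 1688 to 2034 UMIs.

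**Figure D4:**
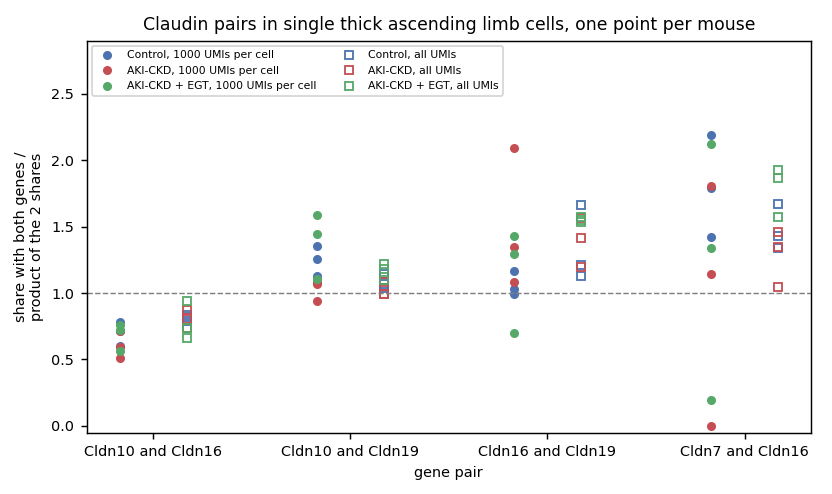
Share of TAL cells with both genes divided by the product of the single shares (y axis) for 4 claudin pairs (x axis), 1 point per mouse, filled for cells thinned to 1000 UMIs and open for all UMIs, coloured by group. A dashed line marks 1, which independent detection would give, and Cldn10 with Cldn16 lies below it in all 9 mice on both scales.

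The distal and collecting duct claudins Cldn3, Cldn4, Cldn7 and Cldn8 had like profiles over the classes. Their pairwise correlations across the 17 classes (log2(CPM + 1), means of 9 mice) lay between 0.87 (Cldn3 with Cldn4) and 0.98 (Cldn7 with Cldn8), a description of classes that share their libraries. Cldn7, a barrier claudin whose profile was most like that of Epcam, an adhesion protein known to bind it (r = 0.98), was 416 CPM ± 42.1 in type A intercalated cells, 408 ± 99.1 in thin limb cells, 381 ± 94.6 in principal cells and 380.1 ± 51.9 in type B intercalated cells of Control mice. These 4 classes overlapped. The DCT stood below them at 138 ± 16.1, and the CNT (102 ± 10.8) and TAL (95.2 ± 8.20) overlapped with each other. In principal cells, 53.5% of cells had a Cldn7 UMI and 25.7% did after thinning to 1000 UMIs, against 1.17% of T cells after thinning. The median depths were 2993 and 2316 UMIs.

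Cldn8, a claudin of tight distal junctions, had the same ranking in Control mice. It stood at 177 CPM ± 86.0 in type A intercalated cells, 149 ± 91.0 in thin limb cells, 139 ± 51.3 in principal cells and 100.4 ± 12.7 in type B intercalated cells, and at 66.3 ± 16.5 in the DCT, 49.5 ± 18.2 in the CNT and 24.3 ± 7.74 in the TAL. Except for the TAL, these classes overlapped with at least 1 neighbour. Cldn4, known with Cldn8 in chloride passage, was highest in principal cells, at 106 CPM ± 50.6, with 115, 152 and 51.7 CPM in the 3 mice. Control values for it were 89.9 ± 65.4 in type A intercalated cells, 69.3 ± 45.7 in thin limb cells, 52.8 ± 41.2 in type B intercalated cells and 21.8 ± 6.46 in the CNT. In the TAL it was 1.38 CPM. Control mouse 3 was the lowest of its group in all 4 classes with the highest Cldn4. Its values rest on 46 UMIs in principal cells, 11 in thin limb cells, 2 in type A and 1 in type B intercalated cells.

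Cldn3, a barrier claudin, was 47.6 CPM ± 17.5 in thin limb cells, 43.0 ± 5.00 in principal cells, 39.6 ± 24.9 in type A and 23.3 ± 11.3 in type B intercalated cells of Control mice. The first 3 overlapped. The TAL (13.8 ± 0.709), CNT (11 ± 3.21) and DCT (10.7 ± 1.38) followed below. Principal cells came as 2 clusters. In the one led by Aqp2, Aqp3 and Aqp4, the water channels of the collecting duct, means over 9 mice were 496 CPM for Cldn7, 219 for Cldn8, 78.2 for Cldn3 and 119 for Cldn4. In the one that shared CNT genes such as S100g and Slc8a1 they were 262, 95.2, 35.3 and 103 CPM. Cldn7, Cldn8 and Cldn3 thus stood higher in the water channel cluster, on average, with overlapping ranges over mice of 315 to 765 against 208 to 324 CPM for Cldn7, 119 to 354 against 50.5 to 145 CPM for Cldn8 and 34.2 to 124 against 23.3 to 55.7 CPM for Cldn3. The ranges of Cldn4 nearly coincided, at 43.9 to 189 against 45.9 to 186 CPM.

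Cldn1, the parietal cell claudin, had a Control mean of at most 9.10 CPM in every named class. This highest mean, in cycling cells, rests on 10 UMIs, and the highest single Control mouse had 12.95 CPM. With claudins among the variable genes of the clustering, stroma had the highest Control mean, 19.2 CPM. Of the 3991 Cldn1 UMIs, 84.7% lay in proximal classes, which also held most kept cells (40.9% PT S1-like, 29.3% PT S3-like and 6.87% PT other). The Control mean there was 5.07 CPM in PT S1-like and 4.32 CPM in PT S3-like cells. Control macrophages had 5.11, 11.65 and 6.41 CPM and T cells 2.97, 3.30 and 9.66 CPM, from 1 to 7 UMIs per mouse. Levels of Cldn1 in 3 small unnamed clusters are given in the closing part.

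Profiles most like those of the other claudins, by Pearson correlation of log2(CPM + 1) over the 17 classes, were these. Cldn2 was most like Sod3 (r = 0.98), an extracellular superoxide dismutase, and Folr1 (0.98), the folate receptor, and Cldn10 like Mfsd4b1 (0.87), a sugar transporter. Cldn3 was most like Cldn7 (0.96), Cldn4 like Krt18 (0.96), a keratin of simple epithelia, and Cldn8 like Cldn7 (0.98). For Cldn1 and Cldn14, whose counts are low, the nearest were Aldh16a1 (0.89) and Shd (0.82). These are descriptions over classes of the same libraries.

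The 39 other junction genes fixed as a list and 30 regulators and transport genes were read beside the 10 claudins. The junction list includes the 11 further claudins of the files, and also Cldn20 and Cldn25, which the files do not hold. In Control cells, the junction genes Tjp1, Cgn, Lsr and Cxadr had their highest mean level in thin limb cells, F11r and Patj in principal cells and Cgnl1 in the TAL. The next class stood close for some, at 92.1 against 90.2 CPM for Cxadr and 321 against 295 CPM for Cgnl1. It stood further off for others, at 31.7 against 22.2 CPM for Cgn. Casr, the calcium-sensing receptor that controls Cldn14, was highest in the TAL at 73.2 CPM. Both lists were also tested between groups. Among the junction genes, 0 of 278 tests were called for AKI-CKD against Control and 2 of 278 for AKI-CKD + EGT against AKI-CKD. Both of these were Magi1, a junction scaffold, which rose in type A (log2 fold change 1.99 ± 0.47, adjusted p = 0.0427) and type B intercalated cells (2.01 ± 0.44, adjusted p = 0.0247). Of all genes tested in these classes for this comparison, 1.17% of 4520 were called in type A and 3.17% of 5772 in type B intercalated cells. For AKI-CKD against Control, 45 of the 278 junction tests (16.2%) had an unadjusted p under 0.05, 36 of them lower in AKI-CKD, against 9.95% of all tests, and DESeq2 called 1. For AKI-CKD + EGT against AKI-CKD such a p was found in 62 junction tests (22.3%, 54 higher with EGT) and 117 regulator tests (36.3%, 90 higher), against 12.2% of all tests. These regulator tests were 21 of 29 in PT S1-like, 21 of 27 in PT S3-like and 13 of 21 in PT other cells. No other class had more than 8. TAL and principal cell markers, some of them on the regulator list, were also higher with EGT in the proximal classes. The part of distal RNA in these tests was not tested. Among the regulators, 0 of 322 were called for AKI-CKD against Control (73 or 22.7% at an unadjusted p under 0.05, 58 of them lower in AKI-CKD, and 5 called by DESeq2). The 2 of 322 called for AKI-CKD + EGT against AKI-CKD were Umod, a urinary protein, higher in type A intercalated cells (2.31 ± 0.55, adjusted p = 0.0449), and Hnf4a, a proximal transcription factor, higher in type B intercalated cells (1.24 ± 0.27, adjusted p = 0.0262). Umod is known from the TAL and Hnf4a from the proximal tubule, not from intercalated cells, and the proximal marker RNA of type B intercalated cells is given below. In type A intercalated cells, the 6 TAL markers stood at 363, 151 and 170 CPM in AKI-CKD and 276, 385 and 977 CPM in AKI-CKD + EGT mice. Umod itself is among these markers, so their sum is not separate from its call. The 9 principal cell markers stood there at 1660, 945 and 1802 CPM and 3140, 2682 and 1478 CPM, and Magi1 itself had its highest Control level in principal cells, at 266 CPM. Proximal markers in type A intercalated cells were 6019, 5548 and 4728 CPM in AKI-CKD and 7500, 7077 and 8225 CPM in AKI-CKD + EGT, without overlap. The part of RNA from other cell types in these calls was not tested.

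Between groups, 1 claudin test of 166 was called. The claudins were tested in every class where they passed the filter, which was 83 tests in each comparison. For AKI-CKD against Control, 0 of 83 were called and 10 had an unadjusted p under 0.05. DESeq2 called 0 and had 7. Over all genes and classes 0.0291% of 126938 tests were called, a background that the claudins' count does not exceed. For AKI-CKD + EGT against AKI-CKD, 1 of 83 was called and 19 had an unadjusted p under 0.05, and 0.202% of all 126938 tests were called. An unadjusted p under 0.05 was found in 12% of claudin tests and 9.95% of all tests for AKI-CKD against Control, and in 22.9% and 12.2% for AKI-CKD + EGT against AKI-CKD. Every AKI-CKD mouse lay above every Control mouse in 6 claudin tests of 83 (7.23%, against 6.83% of all tests) and below in 4 (4.82%, against 10%). Every AKI-CKD + EGT mouse lay above every AKI-CKD mouse in 10 (12%, against 13.2%) and below in 5 (6.02%, against 5.07%). Groups without overlap were thus about as common among the claudins as among all genes, or less common, and the cases described below are read against that.

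The one call was Cldn10 in type B intercalated cells. It stood at 78.9, 93.7 and 109 CPM in Control mice, 39.4, 36.5 and 67.9 CPM in AKI-CKD and 92.5, 88.2 and 119 CPM in AKI-CKD + EGT mice. All AKI-CKD mice, which both comparisons share, lay below every mouse of both other groups. The median mitochondrial share of kept cells also separated the compared groups, at 2.82%, 2.31% and 1.67% in AKI-CKD and 3.35%, 4.87% and 7.64% in AKI-CKD + EGT mice (1.23% to 6.86% in Control), and 17255 of 23876 barcodes were kept in AKI-CKD + EGT mouse 3. The part of these in any comparison of AKI-CKD + EGT with AKI-CKD was not tested, beyond the limit of 10% given below. The log2 fold change of AKI-CKD + EGT against AKI-CKD was 1.08 ± 0.28 (adjusted p = 0.0423), and that of AKI-CKD against Control was -0.91 ± 0.29 (adjusted p = 0.185). In this class and comparison 3.17% of 5772 genes were called. The 11 proximal markers had the same order of groups, at 7787, 6959 and 6940 CPM in Control mice, 3599, 3487 and 6045 CPM in AKI-CKD and 7218, 7061 and 8581 CPM in AKI-CKD + EGT type B intercalated cells. Per 1000 proximal marker UMIs, Cldn10 was 10.1, 13.5 and 15.7 in Control, 11, 10.5 and 11.2 in AKI-CKD and 12.8, 12.5 and 13.9 in AKI-CKD + EGT, against 8.61 to 16.1 over mice in the 3 proximal classes. The part of proximal RNA in this call was not tested. The call was lost with DESeq2 (adjusted p = 0.0990), with the 6 mice of the comparison alone (0.0577), with the replicate block (0.0561), at most 10% mitochondrial UMIs (0.0581), no Harmony correction (0.0684) and claudins among the variable genes (0.117). It was also lost without Control mouse 2 (adjusted p = 0.0562), AKI-CKD mouse 1 (0.194) or 2 (0.202), or AKI-CKD + EGT mouse 2 (0.0511) or 3 (0.319), with log2 fold changes of 0.87 to 1.39 over all mice left out.

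Below the threshold, Cldn7 and Cldn3 stood higher in AKI-CKD in several distal classes and lower with EGT, but none of these values passed the adjusted threshold. Both comparisons use the same AKI-CKD mice, so a higher level against Control and a lower one with EGT are not independent results. In the CNT, Cldn7 was 114, 94.3 and 96.5 CPM in Control mice, 158, 169 and 144 CPM in AKI-CKD and 137, 108 and 97.2 CPM in AKI-CKD + EGT. Every AKI-CKD mouse lay above every Control and every AKI-CKD + EGT mouse. The log2 fold changes were 0.71 ± 0.21 (adjusted p = 0.603) and -0.55 ± 0.20 (adjusted p = 0.525). In the DCT, Cldn7 was 128, 156 and 128 CPM, 202, 226 and 175 CPM, and 162, 145 and 110.4 CPM in the same order, again without overlap, with 0.63 ± 0.20 (adjusted p = 0.599) and -0.66 ± 0.20 (adjusted p = 0.275). Cldn8 in the DCT was 49.0, 68.0 and 81.9 CPM, 90.5, 65.4 and 82.6 CPM, and 68.7, 53.6 and 35.1 CPM, which overlapped, with a log2 fold change of -0.72 ± 0.26 for EGT against AKI-CKD (adjusted p = 0.305). The DCT of Control mice held 9821, 6953 and 5999 CPM of proximal marker RNA, that of AKI-CKD mice 5452, 4768 and 6753 CPM, and that of AKI-CKD + EGT mice 6361, 7887 and 8639 CPM. In the CNT it spanned 9964 to 12372, 7023 to 10910 and 8793 to 11793 CPM in the same order. AKI-CKD thus had the lowest mouse in both classes, and the part of proximal RNA in these levels was not tested.

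In the TAL, Cldn3 was 14.2, 13.0 and 14.2 CPM in Control mice, 22.9, 30 and 26.1 CPM in AKI-CKD and 9.50, 20.2 and 10.4 CPM in AKI-CKD + EGT, from 8 to 46 UMIs per mouse. The AKI-CKD mice lay above all others. The make-up of the class also differed, and its part in these values was not tested. Subcluster T0 took 13.9% to 17.9% of TAL cells in Control and 19.3% to 31.3% in AKI-CKD mice (exact permutation p = 0.1, the smallest that 3 against 3 mice allow), and 10.2% to 20.4% in AKI-CKD + EGT mice (p = 0.2 against AKI-CKD, with overlap). Its pooled Cldn3 level, 27.5 CPM, was near those of T2 (29.4) and T6 (29.9) and below that of T10. Within T0, Control mice had 25.1, 33.9 and 12.7 CPM of Cldn3, AKI-CKD mice 19.8, 37.7 and 35 CPM and AKI-CKD + EGT mice 16.9, 54.2 and 11.5 CPM, from 2 to 13 UMIs each, and the groups overlapped. Over the whole class the Cldn3 log2 fold changes were 0.97 ± 0.29 (adjusted p = 0.336) and -1.07 ± 0.29 (adjusted p = 0.105). TAL Cldn7 had smaller values of the same sign, at 0.44 ± 0.20 (adjusted p = 0.499) and -0.41 ± 0.20 (adjusted p = 0.361). For Cldn16 and Cldn19 the log2 fold changes of EGT against AKI-CKD were -0.57 ± 0.28 (adjusted p = 0.378) and -0.54 ± 0.28 (adjusted p = 0.394). Without AKI-CKD + EGT mouse 1 they became -0.98 (adjusted p = 0.0451) and -1.0 (adjusted p = 0.0254), so this mouse decides whether they are called. The 6 TAL markers together stood at 9817, 12588 and 15636 CPM in the TAL of Control, 18812, 17367 and 15801 CPM of AKI-CKD and 19574, 11078 and 9907 CPM of AKI-CKD + EGT mice. They too were higher in every AKI-CKD than in every Control mouse and highest in AKI-CKD + EGT mouse 1, and their part in the TAL claudin values was not tested. In principal cells, where Cldn7 was 490.0, 333 and 320.1 CPM in Control mice, 272, 364 and 362 CPM in AKI-CKD and 331, 399 and 279.9 CPM in AKI-CKD + EGT, the groups overlapped and the fold changes were -0.10 ± 0.22 and -0.07 ± 0.22.

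Proximal classes carried small amounts of distal claudins, and their group values had the other order. Cldn7 in PT S1-like cells was 5.59, 3.22 and 0.949 CPM in Control mice, 1.28, 2.14 and 1.14 CPM in AKI-CKD and 2.32, 6.41 and 10.5 CPM in AKI-CKD + EGT. All AKI-CKD + EGT mice lay above all AKI-CKD mice. The log2 fold change of EGT against AKI-CKD was 1.81 ± 0.58 (adjusted p = 0.259), and it was 1.94 ± 0.58 in PT S3-like cells (adjusted p = 0.221, 0.0274 with DESeq2 and 1.8e-05 with no filter on low counts). AKI-CKD + EGT mouse 3, with the highest Cldn7 there, also had the largest share of distal cells, 17.3% of its kept cells against 4.58% to 9.86% in the other 8 mice, and the 23.5% of mixed cells given above. In PT S1-like cells, TAL markers were 56.3, 98.1 and 62.1 CPM in AKI-CKD and 115, 201 and 485 CPM in AKI-CKD + EGT. Principal cell markers there were 45.6, 50.9 and 39.2 CPM and 66.7, 102 and 113 CPM in the same order. Neither overlapped between these groups, and the part of distal RNA in these proximal values was not tested.

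**Figure D5:**
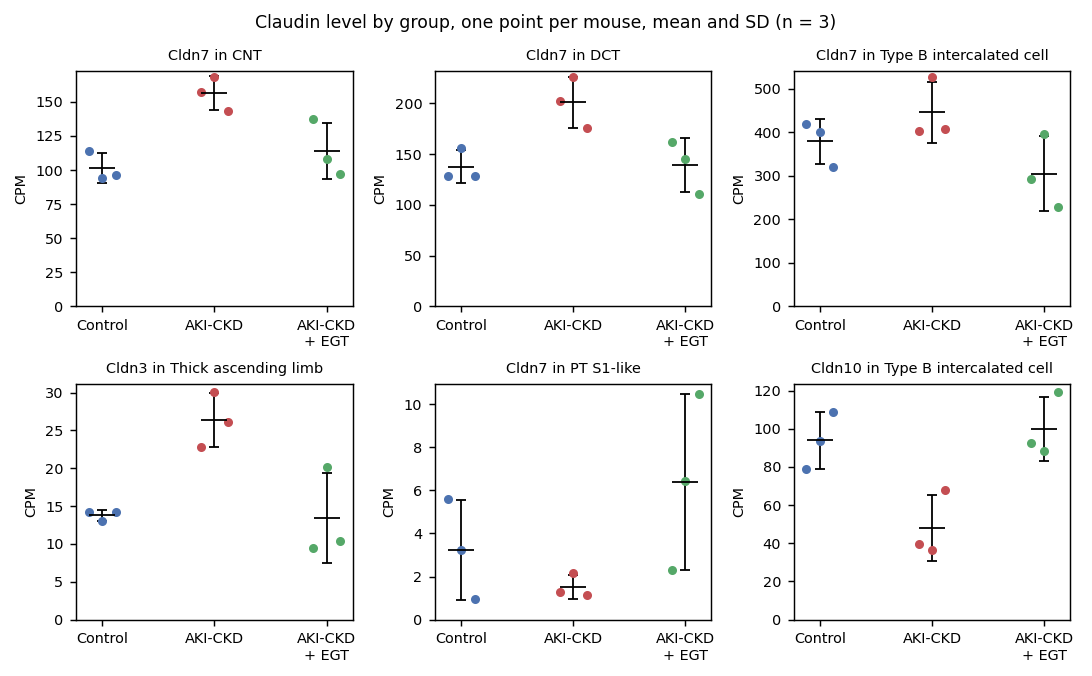
Level (y axis, CPM) by group (x axis) of claudins in 6 class and gene pairs, 1 point per mouse with mean and SD (n = 3). Cldn7 in the CNT and DCT and Cldn3 in the TAL are highest in AKI-CKD, Cldn10 in type B intercalated cells is lowest there at 36.5 to 67.9 CPM, and Cldn7 in PT S1-like cells is highest in AKI-CKD + EGT.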

How the data were processed

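The authors deposited raw UMI counts per gene and cell, 1 matrix per mouse, made with PISA 1.0 per the file headers and on genome build GRCm39 per the labels' processing notes. The aligner, its settings and the annotation are not given in the sources used here. No sample was pooled, and no column was left unused. The UMI counts of any 2 kidneys of a group differed beyond sampling noise (chi-square per degree of freedom of at least 65.0). The study applied the same limits on UMIs, genes and mitochondrial share but kept fewer cells, and the cause of the difference is not known here. Authors' cell names were not used here.

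The 10 claudins and all gene lists were chosen with earlier results of these data known. Counts were log-normalized, 2000 variable genes without claudins and junction genes were reduced to 30 components and corrected for the library with Harmony, and cells were clustered with 20 neighbours and a resolution of 1.1. Clusters outside the proximal tubule were named from marker lists with at least 3 markers 2-fold up, out of 23 lists drawn up. Clusters that met no other list stayed proximal. They were split into S1-like and S3-like by marker scores that differed by at least 0.5. At least 3 markers of the segment had to lie above the median of proximal clusters. The lists of S2 and injured tubule markers were not scored, so such cells, where present, have no class of their own. The rules on ties (score under 0.5), mixed clusters and unnamed parts were set after the clusters were seen. No cell was removed as a doublet in the main results. Counts were summed per mouse and class and tested with edgeR 4.0.16 (R 4.3.3, quasi-likelihood F test, TMM, filterByExpr) in 1 fit of 9 mice per class, with Benjamini-Hochberg adjustment over all genes of a class and comparison and a call at 0.05. DESeq2 1.42.0 and other settings were alternatives. On simulated counts of the TAL, edgeR recovered 62 of 100 genes at a log2 fold of 1 and 99 of 100 at 2, with 9 false calls of 9653 genes, and on those of principal cells 44 and 97 of 100, with 3 false calls of 9629. The changed genes were drawn only from those with a mean of at least 20 UMIs per mouse. Recovery at the lower counts of several claudin tests was therefore not measured. Class shares were compared by exact permutation of 3 against 3 mice (smallest p 0.1). Python 3.11.15, numpy 2.4.6, scipy 1.17.1, pandas 2.3.3, igraph 0.11.9 and matplotlib 3.10.9 were used.

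By the naming rule, each claudin was to be described in the class of its highest Control mean and in classes above 50% of that level. It was also described wherever it passed the adjusted threshold. Others named were chosen after their values were seen. For Cldn2, not all classes above 50% were described. Its Control levels were, for example, 232, 143 and 180 CPM in B cells and 160, 138 and 152 CPM in cycling cells. Intervals cover counting error only.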

Additional observations from a re-analysis of the deposited data

Results flagged for a closer look

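Cldn7 had opposite orders of the groups in different classes, and the difference between classes was not tested. For AKI-CKD + EGT against AKI-CKD, all mice of the former were higher in 3 proximal classes (PT S1-like, PT S3-like and PT other) and lower in 3 distal ones (CNT, DCT and type B intercalated cells). In type B intercalated cells Cldn7 was 404, 527 and 407 CPM in AKI-CKD and 292, 397 and 228 CPM in AKI-CKD + EGT mice, with a log2 fold change of -0.61 ± 0.21 (edgeR adjusted p = 0.126). Proximal marker RNA in this class lay the other way, at 3487 to 6045 CPM in AKI-CKD and 7061 to 8581 CPM in AKI-CKD + EGT mice, and its part in the Cldn7 and Cldn3 values there was not tested. The proximal levels, 0.949 to 11.2 CPM in PT S1-like and PT S3-like cells, lie far below the distal ones. TAL and principal cell markers in the 3 proximal classes were also higher in every AKI-CKD + EGT than in every AKI-CKD mouse. Their values in PT S1-like cells are given above, and the part of distal RNA was not tested. Of the 11 classes tested for Cldn7, 3 thus lay all higher and 3 all lower, where over all genes and classes 13.2% of tests had every AKI-CKD + EGT mouse above every AKI-CKD mouse and 5.07% every mouse below.

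Cldn3 showed the same kind of split, also not tested. All AKI-CKD + EGT mice were higher than all AKI-CKD mice in 1 class (PT S1-like) and lower in 2 (TAL and type B intercalated cells), of 8 classes tested, beside the same shares of 13.2% and 5.07% over all genes. In type B intercalated cells Cldn3 was 41.4, 36.5 and 40.1 CPM in AKI-CKD and 21.4, 32.5 and 13.9 CPM in AKI-CKD + EGT mice, from 6 to 21 UMIs.

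Cldn1 stood higher in 3 small clusters that bear no name than the mean over 9 mice of any named class, of which the highest was 10.8 CPM in cycling cells (28.4 CPM in AKI-CKD mouse 1, from 8 UMIs). One (79 cells, led by Mgp, Tagln and Dcn, with both parietal epithelial and stromal markers) had 30 UMIs and 110.0 CPM (exact 95% Poisson interval 74.2 to 157). Another (75 cells, led by C3 and Sparc) had 14 UMIs and 35.3 CPM (19.3 to 59.2). The last (68 cells, led by C3, Sparc, Cp and Sprr1a) had 55 UMIs and 159 CPM (120 to 207). The remaining part of the same cluster (63 cells) had 5 UMIs and 14.9 CPM (4.82 to 34.7), an interval that holds the level of cycling cells. All of these had cells from 9 mice, and the intervals cover counting error only.

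Cldn14 reached 67.9 CPM (43.1 to 102) in an unnamed cluster of 60 cells, from 23 UMIs in 11 cells, led by long neuronal genes such as Cdh13 and Cntnap2. Its level in the TAL was 1.18 to 10.7 CPM over mice.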

How the results depend on the processing

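For AKI-CKD against Control the count of claudin calls was 0 in the main fit and in all 17 alternatives. For AKI-CKD + EGT against AKI-CKD it was 1, 9 with no filter on low counts, and 0 with only the 6 mice of the comparison, at most 10% mitochondrial UMIs, no Harmony correction or claudins among the variable genes. With each mouse left out it ran from 0 to 3. The replicate block gave 0 calls (Cldn10 in type B intercalated cells at 1.03, adjusted p = 0.0561). Whether the shared numbers pair the mice was not settled. Same-numbered deviations correlated at -0.44 to 0.335 (median -0.0357) over 153 pairs, 11 of them above 0.1. These pairs share 9 mice and were not compared with differently numbered ones. The 9 calls without the filter lay mostly in proximal classes, where Cldn7, Cldn8 and Cldn4 were low, and included Cldn3 in the TAL (-1.08, adjusted p = 0.0340). The share of all genes called without the filter is not given here, so no background stands beside this count. Some small log2 fold changes changed sign with a mouse left out. Cldn2 in PT S1-like cells ran from -0.1024 (without AKI-CKD mouse 3) to 0.2126 against Control, and from -0.3054 to 0.0094 (without AKI-CKD mouse 3) for EGT against AKI-CKD. Cldn7 in principal cells ran from -0.2339 to 0.1407 (without Control mouse 1, and 0.0273 without AKI-CKD mouse 1), and from -0.1948 to 0.0526 (without AKI-CKD + EGT mouse 3). None of these were called. Over all genes and classes, DESeq2 called 224 tests higher and 276 lower for AKI-CKD against Control, where edgeR called 27 and 10, and 604 higher and 460 lower for AKI-CKD + EGT against AKI-CKD, where edgeR called 204 and 53. For the latter comparison DESeq2 called 6 of 278 tests of junction genes and 23 of 322 of regulators, where edgeR called 2 of each. Over all genes in this comparison, DESeq2 gave an adjusted p for 71729 tests and edgeR for 126938, so their counts rest on different totals. Co-detection of Cldn10 and Cldn16 was 0.800 with all UMIs and 0.493 in T0 cells only. The class of highest Cldn7 and Cldn3 changed among thin limb, principal and type A intercalated cells under several settings, where their ranges overlap. That of Cldn1 became stroma (19.2 CPM) with claudins among the variable genes, that of Cldn2 PT S3-like cells without Control mouse 1, and that of Cldn14 the TAL without Harmony correction and without Control mouse 1. Counts limit Cldn14, with 156 UMIs, and small classes such as thin limb cells, with 17 to 144 cells per mouse. The cause of each change was not tested.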
